A study of Mus musculus with 8 samples.

Results

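The genes described here are 10 components of the N6-methyladenosine (m6A) pathway of RNA, measured as RNA in the chromatin and the cytoplasm of mouse embryonic fibroblasts. They are 4 writers (Mettl3, Mettl14, Wtap and Virma), 4 readers (Ythdc1, Ythdf1, Ythdf2 and Ythdf3) and 2 erasers (Fto and Alkbh5). They were chosen by name for their role, with earlier results of these data known. Each was found by its Ensembl identifier among the 28785 genes listed in any library. The cells, fibroblasts grown from mouse embryos, were TSC2+/+ and of the C57BL/6J strain, and all groups share this genotype. The unstressed groups had no heat shock, and the other groups were held at 42 °C for 1 h and then at 37 °C for 3 h. Each condition gave 1 RNA-seq library of the cytoplasmic fraction and 1 of the chromatin pellet left after nuclei were lysed with urea and detergent, so 4 libraries were analysed. The other 4 samples of the series, m6A immunoprecipitates of chromatin RNA and their inputs, were not analysed here. The labels name no clone and no number of cultures. With 1 library per group there was no test and no replicate spread, and every difference below describes these libraries.

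m6A is the most common internal modification of messenger RNA. It is placed in the nucleus, mostly while RNA is still being transcribed, by a complex built around the METTL3 and METTL14 proteins, which WTAP and VIRMA hold together and direct to RNA. Proteins with a YTH domain bind the mark: YTHDC1 in the nucleus, where it acts in splicing, export and the turnover of chromatin-bound RNA, and YTHDF1, YTHDF2 and YTHDF3 mainly in the cytoplasm, where YTHDF2 recruits the machinery that removes poly(A) tails. FTO and ALKBH5 are oxidases that remove the methyl group. In mouse fibroblasts YTHDF2 protein has been reported to move into the nucleus after heat shock.

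All values are RPKM, in which reads are scaled to the length of the gene and to the total reads of the library, and the length used was that of the whole gene with introns. The lengths implied by the values matched the RefSeq spans of these genes on GRCm38.p6 within 1% for 8 of the 10. Mettl3 (ENSMUSG00000022160) lies at chr14:52294841-52308741 and had an implied length of 10461 bp against a RefSeq span of 13901 bp, and one end of its span overlaps Tox4. Mettl14 (ENSMUSG00000028114) lies at chr3:123368295-123385990 with an implied 17812 bp, Wtap (ENSMUSG00000060475) at chr17:12966799-12992543 with 25751 bp, and Virma (ENSMUSG00000040720) at chr4:11485958-11551143 with 64727 bp. Of the readers, Ythdc1 (ENSMUSG00000035851) lies at chr5:86803980-86836659 with 32439 bp, Ythdf1 (ENSMUSG00000038848) at chr2:180904377-180920936 with 16573 bp, Ythdf2 (ENSMUSG00000040025) at chr4:132184916-132212256 with 27392 bp and Ythdf3 (ENSMUSG00000047213) at chr3:16183148-16217037 with 33826 bp. Fto (ENSMUSG00000055932), at chr8:91313367-91668433 with 354908 bp, is by far the longest, and a noncoding gene, 4831440D22Rik, lies within its span. Alkbh5 (ENSMUSG00000042650) lies at chr11:60537683-60558512 with 22132 bp, against a RefSeq span of 20830 bp. How reads in overlapping genes were assigned is not given in the sources used here, so Mettl3 and Fto values may hold reads of these neighbours.

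Libraries held 18364642 reads (chromatin, unstressed), 19536459 (chromatin, after heat shock), 8292312 (cytoplasm, unstressed) and 11131382 (cytoplasm, after heat shock). The 10 members had 319 to 14531 reads each in unstressed chromatin and 258 to 6663 after heat shock, against 54 to 516 and 52 to 1216 in cytoplasm, so the cytoplasmic values are the less precise. The 10 genes of highest mean share of reads took 21.4% and 32.6% of reads in chromatin (unstressed, then after heat shock) and 75.2% and 79.3% in cytoplasm, which lowers the RPKM of all other genes there. Directions were therefore also read on 4 other scales: without these 10 genes, with equal RPKM sums, with the median of all kept genes at 0, and with the median of the other 9 members at 0. The last was chosen after seeing the data and uses the members' own values. The scales share the same reads, so counts of scales are not independent support. On RPKM, less RNA of a gene per cell and more RNA of other genes in the library cannot be told apart, nor can fewer cells. Intervals are 95% intervals from read counts and hold counting error alone. Markers of fibroblasts, of the fractions and of the heat shock response were not looked up, because the files give identifiers without names, so the labels stand unchecked.

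Upstream sequences of 4 members are shown because the comparisons below turn on them: Wtap, the writer with the highest ratio in cytoplasm, Ythdf2, the reader with the highest ratio in chromatin, and both erasers. They are RefSeq sequences of GRCm38.p6, read 5′ to 3′ toward the gene and limited to bases outside any annotated gene. The Wtap bases are chr17:12992544-12992793 (minus strand), those of Ythdf2 chr4:132212257-132212506 (minus strand), those of Alkbh5 chr11:60537433-60537682 (plus strand) and those of Fto chr8:91313292-91313366 (plus strand). Capitals mark matches to CCAAT or GGGCGG on either strand.
Wtap: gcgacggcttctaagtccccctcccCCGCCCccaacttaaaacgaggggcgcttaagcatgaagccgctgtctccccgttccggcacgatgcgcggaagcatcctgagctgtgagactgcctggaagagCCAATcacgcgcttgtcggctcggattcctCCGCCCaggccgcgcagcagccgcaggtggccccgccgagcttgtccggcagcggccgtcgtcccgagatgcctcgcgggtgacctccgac
Ythdf2: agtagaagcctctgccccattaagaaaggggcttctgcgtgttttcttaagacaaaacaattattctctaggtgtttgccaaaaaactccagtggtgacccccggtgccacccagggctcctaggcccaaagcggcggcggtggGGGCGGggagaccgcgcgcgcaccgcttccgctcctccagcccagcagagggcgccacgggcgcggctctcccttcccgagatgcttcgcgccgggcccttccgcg
Alkbh5: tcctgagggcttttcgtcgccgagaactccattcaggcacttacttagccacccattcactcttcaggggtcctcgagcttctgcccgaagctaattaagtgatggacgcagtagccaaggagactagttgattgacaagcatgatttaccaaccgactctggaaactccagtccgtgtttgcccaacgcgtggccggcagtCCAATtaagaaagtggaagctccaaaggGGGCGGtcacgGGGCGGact
Fto: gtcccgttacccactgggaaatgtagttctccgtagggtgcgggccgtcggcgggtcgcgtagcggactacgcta

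The table of promoter windows (250 bases before to 50 after a start) held 7 of the 10 members. Mettl14, Virma and Ythdf3 had no entry. The heat shock element, the binding site of heat shock factors, was searched as its pairs of units GAANNTTC and TTCNNGAA on both strands. GAANNTTC was found in 0 of these windows, including all 3 windows of Wtap, against 7.86% of all 32851 windows, and TTCNNGAA in 0 against 8.52%. A run of 3 units joins both pairs, so it was also absent, against 0.603% of all windows. The CCAAT box was found for Wtap (121 bases upstream in the outermost window, but not in the innermost one), Ythdf1 and Alkbh5 (48 bases upstream), against 37.4% of all windows. The GC box GGGCGG was found in those of Wtap, Ythdc1, Ythdf1, Ythdf2 and Alkbh5, against 35.7%. The 7 members' windows held 17 to 48 CpG sites, against a median of 7 over all windows. These are matches of letters, not measured binding.

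In unstressed chromatin the readers Ythdf3 and Ythdf1 had the highest levels per length, 4.57 and 3.93 RPKM. Alkbh5 (2.52), Wtap (2.36) and Fto (2.23) followed with intervals that overlapped from each to the next, and Ythdf2 stood at 2.01. Mettl3 (1.66), Virma (1.51), Mettl14 (1.45) and Ythdc1 (1.32) were lowest, again with overlapping neighbours. The core writers Mettl3 and Mettl14 were thus not separable in level there. All 10 genes lay above at least 62.2% of the 12618 kept genes (those with a mean of at least 0.1 RPKM and at least 10 reads in all).

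After heat shock the order in chromatin was different. Ythdf1 (5.28 RPKM) and Alkbh5 (4.92) led with overlapping intervals, followed by Ythdf3 (3.89), Ythdf2 (3.32) and Wtap (2.30), each apart from the next. Ythdc1 (1.60) and Virma (1.55) overlapped, as did Mettl3 (1.26) and Mettl14 (1.11), and Fto (0.961) was now lowest. In unstressed cytoplasm Alkbh5 (2.38) and Ythdf1 (2.02) overlapped at the top, Ythdf3 (0.995) and Wtap (0.960) overlapped below them, and Mettl14 (0.670), Mettl3 (0.623), Ythdf2 (0.612), Virma (0.471) and Ythdc1 (0.431) each overlapped the next. Fto (0.175) was lowest, though RPKM on a whole span understates spliced RNA of so long a gene. In cytoplasm after heat shock Wtap was highest at 4.24 RPKM, apart from Alkbh5 (1.64) and Ythdf1 (1.46), and Fto remained lowest at 0.0876.

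**Figure D1:**
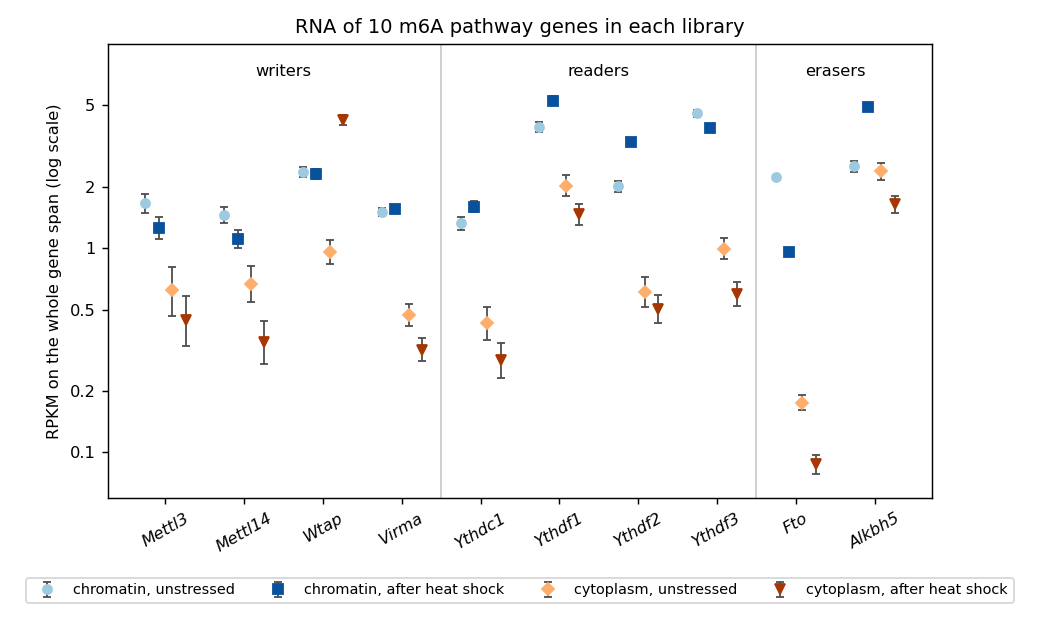
RPKM on the whole gene span (log axis) of the 10 members in the 4 libraries, with 95% counting intervals as bars. Wtap in cytoplasm stands at 0.960 RPKM unstressed and 4.24 after heat shock, while Fto is lower after heat shock in both fractions.

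The first comparison asked how much RNA of each member lay on chromatin after heat shock against unstressed chromatin. The core writers Mettl3 and Mettl14 were lower by similar factors, and the scaffold writers Wtap and Virma differed by less than counting error. Readers and erasers went different ways. On the log2 scale with 0.01 RPKM added, 0 members were at least 2-fold higher, where 16.3% of kept genes were, and 1 member, Fto, was at least 2-fold lower, where 17.5% were. The median log2 ratio of the members was 0.00, against -0.07 over kept genes. Of kept genes past 2-fold, 48.2% were higher, against 62.0% without the 10 genes of most reads and 20.3% with equal RPKM sums.

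Mettl3, the catalytic subunit, had 1.66 RPKM (319 reads) unstressed and 1.26 (258 reads) after heat shock, a ratio of 0.760 (0.643 to 0.899). Mettl14, its RNA-binding partner, went from 1.45 to 1.11 RPKM, a ratio of 0.766 (0.668 to 0.878). Both ratios were below 1 on all 5 scales, though only at 0.887 and 0.894 without the 10 genes of most reads. Of kept genes, 36.61% had a lower ratio than Mettl3 and 37.05% a lower one than Mettl14. Wtap, which anchors this pair in nuclear speckles, had 2.36 and 2.30 RPKM (ratio 0.974, 0.896 to 1.06), and Virma, the large scaffold, 1.51 and 1.55 (ratio 1.03, 0.963 to 1.10). Neither interval excluded 1, and both signs depended on the scale.

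Among readers, Ythdf2 had the highest ratio. It went from 2.01 RPKM (1013 reads) to 3.32 (1779 reads), 1.65-fold (1.53 to 1.78), and was higher on all 5 scales, though by only 1.06-fold with equal RPKM sums. Its ratio exceeded that of 77.7% of kept genes. Ythdf1, linked to translation, went from 3.93 to 5.28 RPKM (1.34-fold, 1.25 to 1.45) and Ythdc1, the nuclear reader, from 1.32 to 1.60 (1.21-fold, 1.10 to 1.33), both higher on 4 of 5 scales and lower with equal RPKM sums. Ythdf3 was the reader that was lower on all 5 scales, at 4.57 and 3.89 RPKM (ratio 0.850, 0.805 to 0.897). Without the 10 genes of most reads it was nearly level, at 0.992-fold. Its ratio lay near the median (0.867) of 4336 kept genes with spans of 0.5 to 2 times its own, of which 48.7% lay below it. On the deposited scale the readers thus did not share a direction.

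The erasers differed in opposite directions on chromatin. Alkbh5 had 2.52 RPKM (1023 reads) unstressed and 4.92 (2127 reads) after heat shock, 1.95-fold (1.81 to 2.11), just under the 2-fold line. It was higher on all 5 scales, by 1.25-fold to 2.28-fold. Fto had 2.23 RPKM (14531 reads) and 0.961 (6663 reads), 2.32-fold lower (2.25 to 2.39), and was lower on all 5 scales. The low ratio of Fto was shared by other genes of its size: 399 kept genes with spans of 0.5 to 2 times that of Fto had a median ratio of 0.572, and 42.1% of them were at least 2-fold lower. The part of gene length in the Fto ratio was not tested. For Alkbh5, by contrast, 4660 genes of similar span had a median ratio of 0.901, and 88.9% of them lay below Alkbh5. For Ythdf2 the median of 4578 genes of similar span was 0.879, and 84.9% lay below it.

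**Figure D2:**
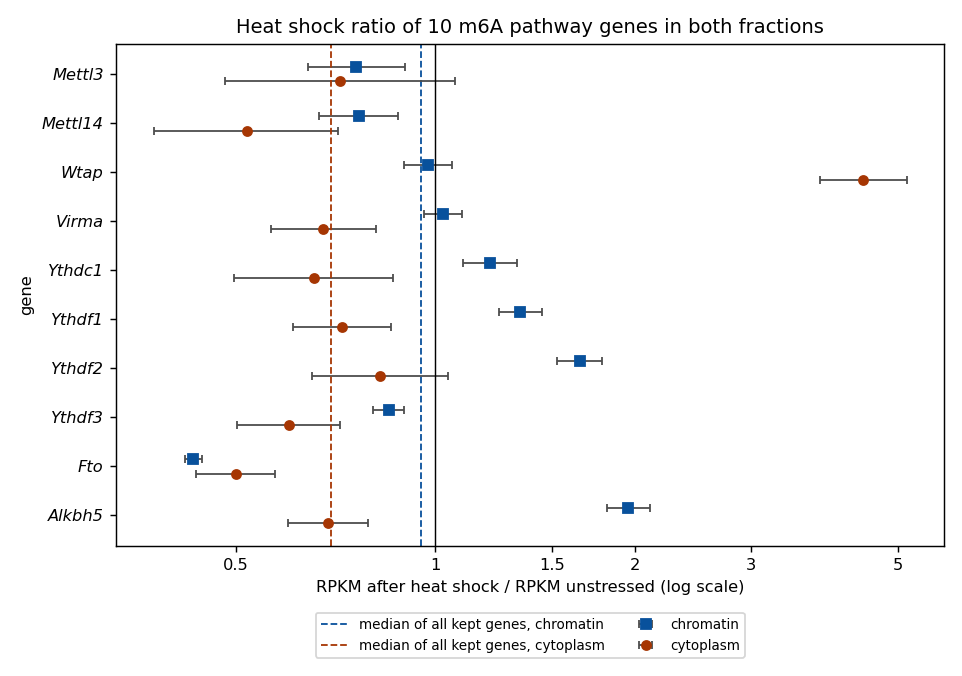
Ratio of RPKM after heat shock to RPKM unstressed (log axis) for each member in chromatin and cytoplasm, with 95% counting intervals as bars, a solid line at 1 and dashed lines at the median of all kept genes. Wtap stands apart in cytoplasm at 4.42 while its chromatin ratio is 0.974, and Alkbh5 and Fto lie on opposite sides in chromatin (1.95 and 0.431). On the deposited scale 9 of 10 cytoplasmic ratios are below 1, as are those of 75.9% of kept genes. The cytoplasmic ratios of Mettl3, Ythdf1, Ythdf2 and Alkbh5 turn on at least 1 other scale.

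The second comparison asked the same of cytoplasm. Wtap was several-fold higher after heat shock, while the other 9 members lay below 1 and close to the bulk of genes. Of kept genes, 75.9% also lay below 1 on this scale. Of the members, 1 was at least 2-fold higher, where 11.2% of kept genes were, and 0 were at least 2-fold lower, where 19.9% were. The median log2 ratio of the members was -0.54 and that of kept genes -0.52. Of kept genes past 2-fold, 35.9% were higher, against 73.0% with the median at 0, 50.0% without the 10 genes of most reads and 24.4% with equal RPKM sums.

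Wtap had 0.960 RPKM (205 reads) in unstressed cytoplasm and 4.24 (1216 reads) after heat shock, 4.42-fold (3.81 to 5.15). It was higher on all 5 scales, by 3.73-fold to 6.41-fold, and its ratio exceeded that of 94.1% of kept genes and of 97.6% of 4613 genes of similar span. The other writers did not share this. Mettl14 went from 0.670 to 0.348 RPKM (ratio 0.519, 0.376 to 0.713) and Virma from 0.471 to 0.319 (0.677, 0.564 to 0.813), both lower on all 5 scales. With the median of kept genes at 0, however, the log2 ratio of Virma was only -0.026, against -0.40 for Mettl14. Genes of similar span to Virma had a median ratio of 0.648. Mettl3, with only 54 and 52 reads, had 0.623 and 0.447 RPKM and an interval that held 1 (0.717, 0.481 to 1.07).

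The readers had similar ratios in cytoplasm. Ythdf3 went from 0.995 to 0.598 RPKM (0.601, 0.502 to 0.719), and Ythdc1 from 0.431 to 0.282 (0.655, 0.497 to 0.862), and both were lower on all 5 scales. With the median of kept genes at 0 their log2 ratios were -0.20 and only -0.071. Ythdf1 went from 2.02 to 1.46 (0.724, 0.610 to 0.859), and Ythdf2 from 0.612 to 0.505 (0.825, 0.652 to 1.05). These last readers turned higher on 2 of 5 scales, and the Ythdf2 interval held 1, so the higher chromatin level of Ythdf2 RNA had no counterpart detectable in cytoplasm at this depth. Of the erasers, Fto had 0.175 RPKM (516 reads) and 0.0876 (346 reads), 2.00-fold lower (1.74 to 2.30), which with 0.01 RPKM added lay just short of the 2-fold line (log2 ratio -0.93). It was lower on all 5 scales, and 399 genes of similar span had a median ratio of 0.588. Alkbh5 had 2.38 and 1.64 RPKM (0.689, 0.600 to 0.790), and was lower on 4 of 5 scales. Its log2 ratio was near 0 with the median of kept genes at 0 (-0.014) and with that of the other 9 members at 0 (0.013).

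**Figure D3:**
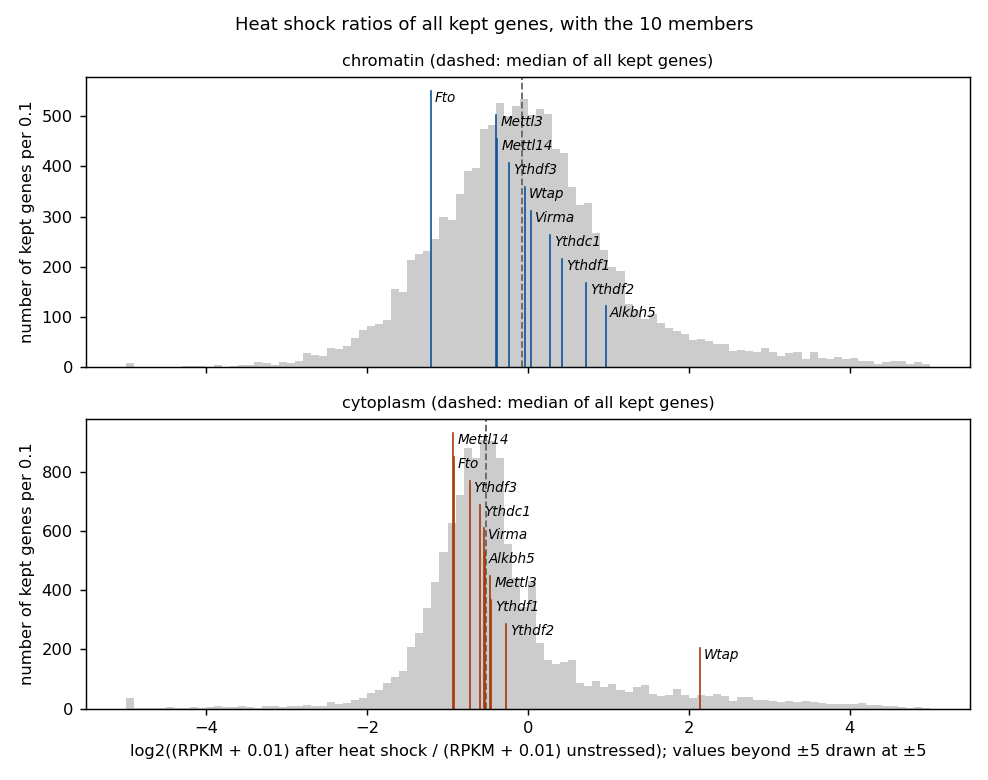
Number of the 12618 kept genes by log2 ratio after heat shock against unstressed (0.01 RPKM added), in chromatin above and cytoplasm below, with the 10 members as labelled lines and a dashed line at the median of kept genes. In cytoplasm 9 members sit within the main peak (median of kept genes -0.52) and Wtap stands at 2.13; in chromatin they run from -1.21 (Fto) to 0.96 (Alkbh5).

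The third comparison set each gene's heat shock ratio in chromatin against that in cytoplasm. Alkbh5 stood out toward chromatin and Wtap toward cytoplasm. At least 2-fold higher in chromatin was 1 member, where 26.7% of kept genes were, and 1 was at least 2-fold lower, where 12.4% were. The median log2 difference of the members was 0.57, against 0.42 over kept genes. Kept genes past 2-fold were higher in 68.2%, against 43.6% with each median at 0 and 44.7% with equal RPKM sums. Ratios on opposite sides of 1 in the fractions, with both intervals excluding 1, were found for 3 members, where 15.1% of kept genes had them. All 3 (Alkbh5, Ythdf1 and Ythdc1) were above 1 in chromatin and below 1 in cytoplasm on the deposited scale, where 14.0% of kept genes were. The Wtap ratio was 4.54-fold lower in chromatin than in cytoplasm (3.83 to 5.38), on all 5 scales in the same direction. That of Alkbh5 was 2.84-fold higher (2.43 to 3.31), and stayed at 1.99-fold or more on the 5 scales with 0.01 RPKM added. Ythdf2 was at the line, with 2.00-fold (1.57 to 2.55). Ythdf1 (1.86-fold, 1.55 to 2.23), Ythdc1 (1.84-fold, 1.39 to 2.44) and Virma (1.52-fold, 1.25 to 1.83) also leaned to chromatin on all 5 scales. Mettl14 (1.48-fold) and Ythdf3 (1.41-fold) did so on 4 of 5. Fto was slightly lower in chromatin (0.863, 0.751 to 0.992) on all 5 scales, and the Mettl3 interval held 1 (1.06, 0.700 to 1.60).

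The last comparisons set chromatin against cytoplasm within each condition. They use the same 4 libraries as the heat shock ratios, so their differences restate those above. In unstressed cells 8 of 10 members were at least 2-fold higher in chromatin, where 64.9% of kept genes were, and 0 were at least 2-fold lower, where 8.97% were. The members' median ratio was 2.83 and that of kept genes 3.06. Higher genes made up 87.9% of those past 2-fold, against 46.4% with the median at 0 and 48.3% without the 10 genes of most reads, so the balance between fractions rests on the scale.

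Fto RNA leaned most to chromatin in unstressed cells, with 2.23 RPKM there and 0.175 in cytoplasm, 12.7-fold (11.6 to 13.9), and it was higher in chromatin on all 5 scales. Genes of similar span had a median of 9.32. Ythdf3 (4.60-fold, 4.06 to 5.22), Ythdf2 (3.29-fold, 2.75 to 3.96) and Virma (3.21-fold, 2.81 to 3.67) were also higher in chromatin on all 5 scales. Without the 10 genes of most reads, however, Ythdf2 and Virma were nearly level (log2 ratios 0.051 and 0.013). Medians for genes of similar span were 3.36 (Ythdf3), 3.08 (Ythdf2) and 4.475 (Virma), so Virma lay below the median of its own. Ythdc1 (3.07-fold), Mettl3 (2.67-fold), Wtap (2.46-fold), Mettl14 (2.17-fold) and Ythdf1 (1.94-fold) were higher on the deposited scale and lower on at least 2 others. Alkbh5 had 2.52 and 2.38 RPKM, a ratio near 1 on the deposited scale (1.06-fold, 0.944 to 1.19) that ran from 0.334-fold to 3.34-fold over the 5 scales and was below 1 on 3 of them. Of kept genes, 19.5% had a lower ratio.

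After heat shock 9 of 10 members were at least 2-fold higher in chromatin, where 73.9% of kept genes were, and 0 at least 2-fold lower, where 6.0% were. The median ratio was 4.13 for members and 3.99 for kept genes, and higher genes made up 92.5% of those past 2-fold, against 44.5% with the median at 0 and 61.2% without the 10 genes of most reads. Wtap was the exception: with 2.30 RPKM in chromatin and 4.24 in cytoplasm it was 1.84-fold lower in chromatin (1.70 to 2.00), and lower on 4 of 5 scales, the exception being equal RPKM sums. Only 6.52% of kept genes had a lower ratio. Fto (11.0-fold, 9.85 to 12.3), Ythdf2 (6.58-fold, 5.58 to 7.81), Ythdf3 (6.50-fold, 5.67 to 7.49), Ythdc1 (5.66-fold, 4.62 to 7.01) and Virma (4.86-fold, 4.24 to 5.60) were higher in chromatin on all 5 scales. The smallest margin was that of Virma, 1.19-fold with the median of kept genes at 0. Virma lay below the median of genes of similar span (5.51), while Fto, Ythdf2, Ythdf3 and Ythdc1 lay above theirs. Ythdf1 (3.61-fold), Mettl14 (3.20-fold), Alkbh5 (3.00-fold) and Mettl3 (2.83-fold) were lower there on at least 2 of the other scales.

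**Figure D4:**
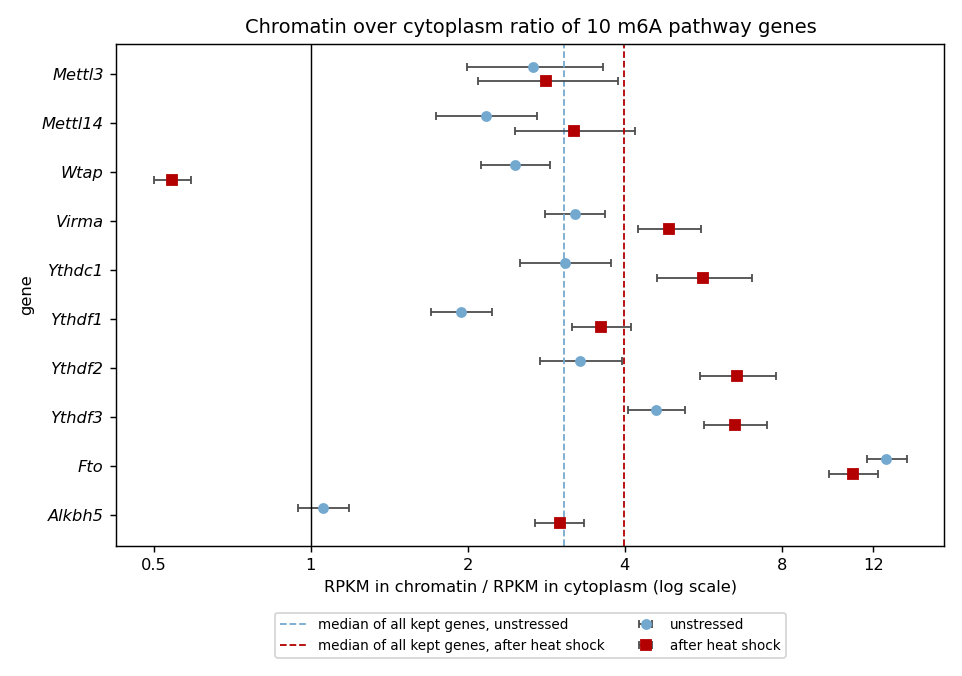
Ratio of RPKM in chromatin to RPKM in cytoplasm (log axis) for each member, unstressed and after heat shock, with 95% counting intervals as bars, a solid line at 1 and dashed lines at the median of all kept genes. On this deposited scale Wtap moves from 2.46 to 0.543 and Alkbh5 from 1.06 to 3.00; positions relative to 1 turn on other scales for Mettl3, Mettl14, Wtap, Ythdc1, Ythdf1 and Alkbh5 in at least 1 condition.

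Ratios between members of the same library need no scaling between libraries. Their size still depends on the whole gene spans used as lengths, which are the same in every library. Within the writer complex, Mettl14 to Mettl3 was 0.875 (0.757 to 1.01) in unstressed chromatin, 0.881 (0.751 to 1.04) after heat shock, 1.08 (0.765 to 1.53) in unstressed cytoplasm and 0.779 (0.536 to 1.14) after heat shock, and every interval held 1. Mettl14 and Mettl3 thus kept a similar balance at this depth. Wtap to Mettl3 was 1.42 (1.26 to 1.62) and 1.82 (1.59 to 2.09) in chromatin, but 1.54 (1.14 to 2.12) and 9.50 (7.20 to 12.8) in cytoplasm. Virma to Mettl3 was 0.910 (0.807 to 1.03) and 1.23 (1.08 to 1.40) in chromatin and 0.757 (0.563 to 1.04) and 0.715 (0.527 to 0.985) in cytoplasm. In cytoplasm the balance of the complex's RNAs therefore differed in Wtap, and not in Virma beyond the intervals.

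Among the cytoplasmic readers, Ythdf2 to Ythdf3 was 0.440 (0.410 to 0.473) in unstressed chromatin and 0.855 (0.805 to 0.909) after heat shock, and 0.615 (0.498 to 0.757) and 0.845 (0.684 to 1.04) in cytoplasm. Ythdf3 to Ythdf1 went the other way in chromatin, from 1.16 (1.09 to 1.25) to 0.736 (0.692 to 0.783). Its intervals overlapped in cytoplasm (0.492, 0.415 to 0.583, and 0.408, 0.341 to 0.489). On chromatin Ythdf3 thus had the highest level per length of these related readers in the unstressed library and Ythdf1 after heat shock. Alkbh5 to Fto was 1.13 (1.06 to 1.20) in unstressed chromatin and 5.12 (4.87 to 5.38) after heat shock, and 13.6 (11.9 to 15.5) and 18.7 (16.2 to 21.7) in cytoplasm. The eraser pair differed most between the chromatin libraries.

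As shares of the 10 members' summed RPKM, writers made up 29.6% and 23.8% in chromatin (unstressed, then after heat shock) and 29.2% and 53.9% in cytoplasm. Wtap alone made up 10.3% in unstressed cytoplasm and 42.7% after heat shock. Readers made up 50.2% and 53.8% in chromatin and 43.5% and 28.7% in cytoplasm. Erasers made up 20.1% and 22.4% in chromatin, where Fto went from 9.46% to 3.67% and Alkbh5 from 10.7% to 18.8%, and 27.4% and 17.4% in cytoplasm. Shares sum to the whole, so a high share of Wtap goes with low shares of the others. They also rest on RPKM per whole gene span. As shares of the members' reads in unstressed chromatin, writers made up 14.8%, readers 23.3% and erasers 62.0%.

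**Figure D5:**
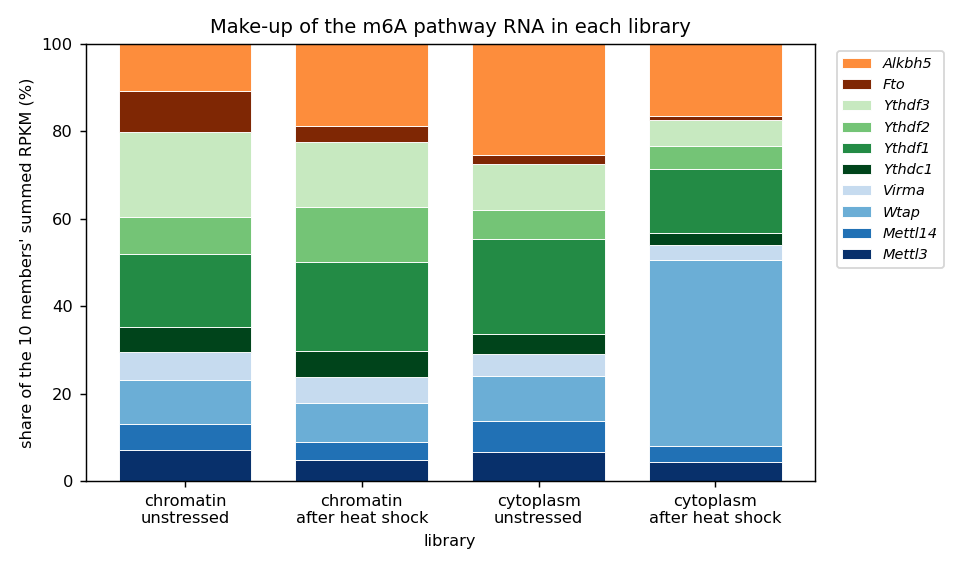
Share of the 10 members' summed RPKM (%) held by each member, 1 bar per library. Wtap goes from 10.3% to 42.7% between the cytoplasmic libraries, and in chromatin the share of Fto goes from 9.46% to 3.67% beside Alkbh5 from 10.7% to 18.8%.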

How the data were processed

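RPKM values per Ensembl gene were deposited, with genes without a read not listed; the submitters' processing notes list cutadapt, STAR and GRCm38, with no versions. The sources used here do not name the read counter, the annotation or how strand was handled. Per the labels' protocols, gel-selected short RNA fragments were sequenced.

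Library totals and reads per gene were recovered from the deposited RPKM, in which each value is a whole number of reads over length and total. Totals were common divisors over 20000 pairs of inverse values (tolerance 0.002). The largest relative error was 8.6e-13. Reads sharing a factor with the length come out too small, and the sums reached 98.4% to 99.7% of totals. Recovery and the 2-fold rule were tested on simulated data.

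Log2 ratios used RPKM + 0.01, which understates differences of low genes. Kept genes had a mean of at least 0.1 RPKM and at least 10 reads over the 4 libraries, as all 10 members did. Ratios printed for members carry no pseudocount and an exact 95% Clopper-Pearson interval. PCR copies cannot be told from molecules, so intervals cover counting error only. Differences between fractions carry a normal interval on the log scale. Alternatives were the scale, pseudocount, filter and 2-fold line. The rule for named genes was all 10 members, other pathway genes past 2-fold, and genes of similar profile; the 63 symbols of the pathway and marker lists could not be looked up and were left out. Members and lists were chosen with earlier results of these data known. Python 3.11.15, numpy 2.4.6, pandas 2.3.3, scipy 1.17.1 and matplotlib 3.10.9 were used.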

Additional observations from a re-analysis of the deposited data

Results flagged for a closer look

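Heat shock ratios on opposite sides of 1 in the 2 fractions, with both counting intervals excluding 1, were seen for 3 of the 10 members. Of the 12618 kept genes, 15.1% had such a pair of ratios, and 14.0% had the ratio above 1 in chromatin and below 1 in cytoplasm, as these members did. Kept genes were not matched to the members in depth, on which such a call depends. The ratio in chromatin over that in cytoplasm was 2.84 for Alkbh5, 1.86 for Ythdf1 and 1.84 for Ythdc1. With 1 library per group, none of these differences between fractions was tested. The chromatin ratios of Ythdf1 and Ythdc1 were below 1 with equal RPKM sums, and the cytoplasmic ratios of Alkbh5 and Ythdf1 were above 1 on 1 and 2 of the 5 scales.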

How the results depend on the processing

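Wtap in cytoplasm, and Alkbh5, Ythdf2 and Fto in chromatin, kept their direction on all 5 scales, while counts of members past 2-fold moved with the settings. Percentages in brackets are the shares of all genes tested at the same setting. With the median of kept genes at 0, 1 member was higher in chromatin after heat shock (17.5%), against 0 as deposited. Against cytoplasm 1 was then higher (24.0%) and 1 lower (27.7%) unstressed, and 1 higher (20.9%) and 1 lower (26.0%) after heat shock, against 8 and 0, then 9 and 0. Turned log2 ratios of chromatin to cytoplasm were Mettl3 -0.21, Mettl14 -0.51, Wtap -0.32, Ythdc1 -0.016, Ythdf1 -0.66 and Alkbh5 -1.53 unstressed, and Mettl3 -0.52, Mettl14 -0.35, Ythdf1 -0.15 and Alkbh5 -0.42 after heat shock. Without the 10 genes of most reads, 1 was higher (20.9%) and 0 lower (12.8%) in chromatin. Against cytoplasm 1 was higher (25.7%) and 1 lower (27.5%) unstressed, and 2 (32.4%) and 1 (20.5%) after heat shock. Turned ratios were Mettl3 -0.25, Mettl14 -0.55, Wtap -0.37, Ythdc1 -0.048, Ythdf1 -0.71 and Alkbh5 -1.58, then Mettl3 -0.20, Mettl14 -0.027 and Alkbh5 -0.12. The scale of the other 9 members was chosen after seeing the data. It is set for each member alone, so it has no share over all genes. On it 1 member was higher in chromatin. In the difference between fractions 0 were higher (1 as deposited), while Wtap stayed lower (log2 ratio -2.76). Against cytoplasm 1 was higher and 1 lower in each condition. Turned ratios were Mettl3 -0.20, Mettl14 -0.49, Wtap -0.31, Ythdf1 -0.64 and Alkbh5 -1.52, then Mettl3 -0.77, Mettl14 -0.60, Ythdf1 -0.40 and Alkbh5 -0.67. Equal RPKM sums gave 3 lower in chromatin (38.0%) and 2 in cytoplasm (29.9%), and turned Wtap to 0.37 against cytoplasm after heat shock. A pseudocount of 1 gave 0 lower in chromatin (2.12%), and 2 (16.9%) and 5 (22.0%) higher against cytoplasm. No pseudocount gave 1 lower in cytoplasm (23.5%) and 2 higher in the difference (27.2%). A mean of at least 1 RPKM kept only 5 members and left out Fto, without altering any member's ratio. Of these 5 members, 0 were lower in chromatin (9.73%), and 3 (50.1%) and 4 (64.1%) were higher against cytoplasm. A 1.5-fold line gave 2 higher in chromatin (25.8%), 4 lower in cytoplasm (45.5%), 1 lower against cytoplasm after heat shock (8.13%) and 5 higher in the difference (42.9%).

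Over the 12618 kept genes, scale, pseudocount and fold line gave 640 to 3259 higher in chromatin after heat shock (2053 as reported) and 268 to 4791 lower (2203). In cytoplasm they gave 229 to 1950 higher (1410) and 132 to 5735 lower (2513). Against cytoplasm they gave 2127 to 11091 higher (8188) and 373 to 3499 lower (1132) unstressed, and 2636 to 11296 (9325) and 330 to 3286 (757) after heat shock. In the difference they gave 922 to 5408 higher (3371) and 340 to 2436 lower (1570). Over all 28785 genes listed, with no filter, 26.5% were higher and 13.8% lower in chromatin, 17.6% and 12.2% in cytoplasm, 47.2% and 7.47% against cytoplasm unstressed, 58.1% and 8.6% after heat shock, and 28.6% and 18.2% in the difference. The median log2 ratio of kept genes moved from -0.07 to 0.145 in chromatin and from -0.52 to -0.28 in cytoplasm without the 10 genes of most reads, and to -0.70 and -0.72 with equal RPKM sums. The causes were not tested. No paired analysis was possible because each group had 1 library, and for the same reason no library could be left out. Depth limits the cytoplasmic values most, with 52 reads at the lowest.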

Other observations

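Of the 1410 kept genes at least 2-fold higher in cytoplasm after heat shock, 561 were past 2-fold in neither direction in chromatin, as Wtap was, 738 were also higher in chromatin and 111 were lower there. Among 3881 genes with a mean of at least 1 RPKM and at least 20 reads in every library, the profile most like that of Wtap (the smallest Euclidean distance of centred log2 values over the 4 libraries, 0.29) was that of ENSMUSG00000037761, with an implied length of 7162 bp. It had 1.38 and 1.68 RPKM in chromatin (unstressed, then after heat shock) and 0.674 and 3.20 in cytoplasm. The next was ENSMUSG00000035266 (distance 0.45, 36454 bp), with 1.11 and 1.46 RPKM in chromatin and 0.595 and 3.08 in cytoplasm.

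Of the 2203 kept genes at least 2-fold lower in chromatin after heat shock, 781 were also at least 2-fold lower in cytoplasm and 1311 were past 2-fold in neither direction there. Fto fell among the latter only because 0.01 RPKM was added. Without it Fto was 2.00-fold lower in cytoplasm, so it lay at the border of these groups. The profile most like that of Fto was that of ENSMUSG00000031298 (distance 0.08), also a long gene at 107381 bp, with 3.80 and 1.53 RPKM in chromatin and 0.285 and 0.151 in cytoplasm. The next was ENSMUSG00000022974 (distance 0.19, 30507 bp), with 5.78 and 2.77 RPKM in chromatin and 0.553 and 0.247 in cytoplasm. With 4 libraries such likeness is a description of these values, and the files do not pair these identifiers with names.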
